A study of Rattus norvegicus with 10 samples.

Results

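The enzyme genes Cyp2e1, Adh1c, Ephx1, Ephx2, Aox1 and Aox3 were followed in the left ventricle of Sabra rats through heat acclimation, its loss and its return. They are the 6 listed detoxification genes measured, out of 14324 genes on the arrays, and each was read by 1 probe set. The 6 were listed as detoxification genes, and Cyp2e1 and Ephx2 were chosen by their log2 difference between deacclimated and control hearts, so that comparison is given for the 6 genes as values with errors and without a test. The choice favours high DeAC and low control values of these 2 genes, so every comparison of theirs with DeAC pools is also given without a p. Their comparisons with control share the pools that the choice used, and those of Cyp2e1, all positive, are given without a p too. Each group had 2 arrays, and each array held left ventricular RNA pooled from 5 albino Sabra rats. All heated rats entered a chamber at 34 °C at the age of 3 weeks. AC2d rats spent 2 days in it and were sampled at 1 month of age. AC30 rats spent 30 days in it and were sampled at 2 months. The deacclimated group, DeAC, had 30 days at 34 °C and then 30 days at 24 °C, and was 3 months old. The reacclimated group, ReAC, had the same history followed by 2 more days at 34 °C, and was also 3 months old. Control rats were untreated and 1 month old. Labelled ages were equal between AC2d and control and between ReAC and DeAC, and in every other comparison age and heat history cannot be told apart.

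These genes encode enzymes of drug, solvent and lipid metabolism that are best known from the liver. CYP2E1 is a cytochrome P450 that oxidises ethanol, acetone and small solvents and releases reactive oxygen as it works, while the alcohol dehydrogenase ADH1C turns alcohols into aldehydes. The microsomal epoxide hydrolase EPHX1 opens reactive epoxides, and the soluble epoxide hydrolase EPHX2 hydrolyses epoxides of arachidonic acid, which act on blood vessels and heart muscle. Aldehyde oxidases such as AOX1 and AOX3 use a molybdenum cofactor to oxidise aldehydes and nitrogen heterocycles.

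Cyp2e1, Aox3, Aox1, Ephx1 and Adh1c had their highest mean in reacclimated hearts, and Ephx2 had its highest in deacclimated hearts. Short heat alone moved none of the 6 genes past the threshold. Differences are log2 differences with standard errors from limma, fitted to all 14324 genes and all 10 arrays (n = 2 pools per group), and a gene passed at a Benjamini-Hochberg adjusted p under 0.05 over all genes. In AC2d against control 0 of 6 genes passed in limma, where 0.663% of all genes were higher and 1.86% lower. An unadjusted p under 0.05 was found for 2, Aox3 and Cyp2e1, and the choice of Cyp2e1 used the control pools. In AC30 against control 1 gene was higher and 0 lower, beside 3.57% of all genes higher and 4.96% lower. In DeAC against control 5 of 6 differences were positive, which the choice of genes partly fixed, and 4.45% of all genes were higher and 3.77% lower. In ReAC against control 5 genes were higher and 0 lower, beside 5.63% of all genes higher and 5.28% lower. The 5 include Cyp2e1, whose choice used the control pools, and the 4 genes other than Cyp2e1 and Ephx2. In ReAC against AC30 3 of the 6 genes were higher and 0 lower, beside 6.77% of all genes higher and 4.85% lower. Comparisons with DeAC pools were counted over the 4 genes other than Cyp2e1 and Ephx2. In ReAC against DeAC 2 of these 4 were higher and 0 lower, beside 1.7% of all genes higher and 2.21% lower. In DeAC against AC30 1 of these 4 was higher and 1 lower, beside 9.85% of all genes higher and 7.45% lower. The second heat response, ReAC minus DeAC, was also set against the first, AC2d minus control. There limma called 0 of these 4 genes, and 0 had an unadjusted p under 0.05, beside 0.223% of all genes higher and 0.0768% lower. The comparisons share pools: DeAC takes part in 4 of them and control in 5, so their counts are not independent. Medians over the 6 genes were 0.67 in ReAC against control and 0.40 in ReAC against DeAC, where all genes had medians of -0.01 and -0.01. The 6 include Cyp2e1 and Ephx2, whose choice used the DeAC and control pools, so these medians are a description.

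**Figure D1:**
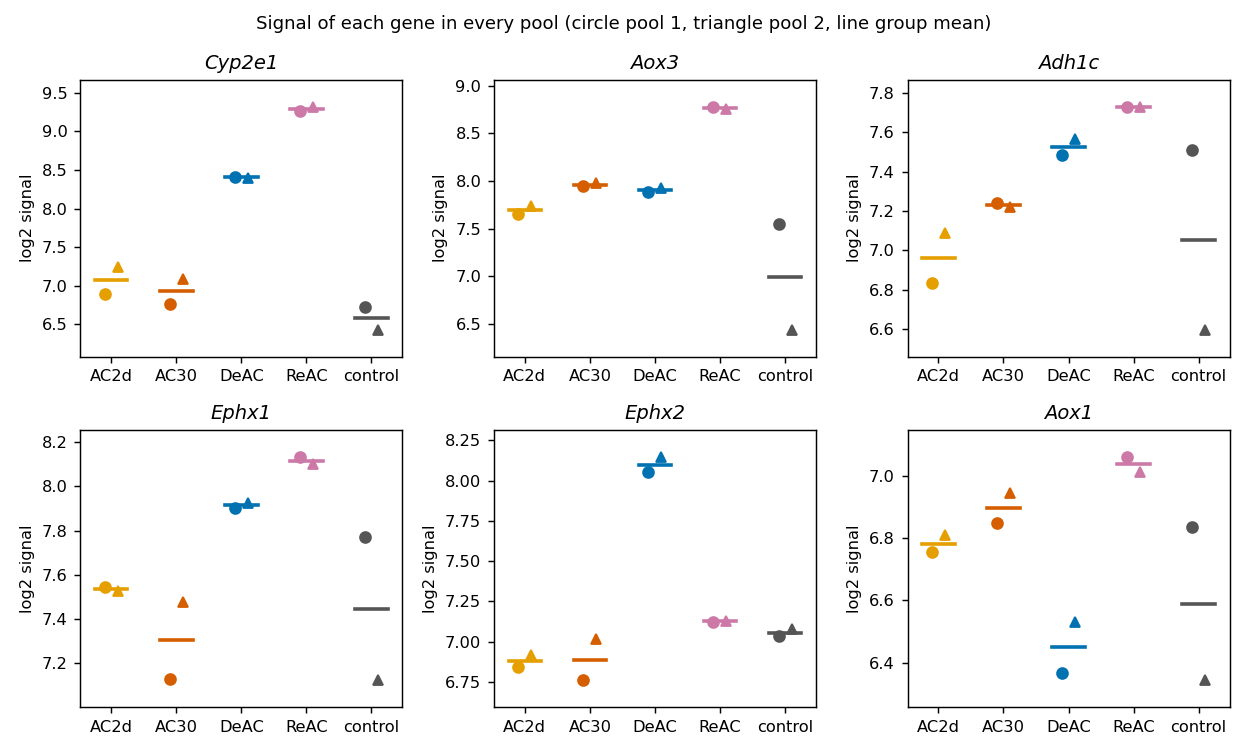
Log2 signal of the 6 genes in every pool, with groups along the horizontal axis, circles for pool 1, triangles for pool 2 and a line at the group mean. Cyp2e1 is highest in the ReAC pools at 9.27 and 9.32, Ephx2 is highest in the DeAC pools at 8.05 and 8.15, and the control pools lie far apart for Aox3 and Adh1c.

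The 2 control pools stood apart from each other for 4 of the 6 genes. Control pool 1 lay above control pool 2 by 1.11 log2 units for Aox3, 0.91 for Adh1c, 0.65 for Ephx1 and 0.49 for Aox1, gaps reached by only 0.342%, 0.51%, 0.928% and 1.88% of all genes. The control gap was 0.30 for Cyp2e1 and 0.04 for Ephx2. In all, 57 genes lay more than 1 log2 unit apart between the control pools, against at most 1 in any other group. The standard error of a gene is shared by all comparisons, so the control pools widened it for Aox3, Adh1c, Ephx1 and Aox1 also where control took no part.

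Markers of other cells were read on the same arrays. The mean of the 7 measured atrial muscle markers (of 8 listed) was 11.59 and 11.65 in AC2d pools, 12.08 and 11.97 in AC30 pools, 7.75 and 7.78 in DeAC pools and 10.87 and 10.91 in ReAC pools, against 11.37 and 9.69 in control pools. Atrial markers were thus lowest in DeAC hearts, and they differed by pool within control. The 7 macrophage markers, all measured, averaged 8.25 and 8.26 in ReAC pools and from 7.94 to 7.98 in DeAC pools, and lay between 7.60 and 7.73 in the AC2d, AC30 and control pools. Of these 7, 7 passed as higher in ReAC than in control and 3 passed as higher in ReAC than in DeAC. For each of the 7, both ReAC pools lay above both DeAC pools. The 10 adipocyte markers averaged 7.31 and 7.28 in AC30 pools, 6.68 to 6.90 in the AC2d, DeAC and ReAC pools, and 7.68 and 6.80 in control pools. The mean of the 8 fibroblast markers was 9.63 and 9.64 in DeAC pools, 9.84 and 9.82 in ReAC pools and 10.06 to 10.30 in the AC2d, AC30 and control pools, and 8 of 8 were lower in DeAC than in AC30. The mean of the 4 measured mesothelium markers (of 5) was 6.38 and 6.40 in DeAC pools and 6.80 to 7.36 elsewhere. Of the 4, 3 passed as lower in DeAC than in AC30 and 3 passed as higher in ReAC than in DeAC. The brown adipocyte, endothelium and smooth muscle lists had means of 6.73 to 7.51, 9.12 to 9.54 and 8.90 to 9.48. The mean of the 10 measured hepatocyte markers (of 12 listed) lay between 4.62 and 4.78 on all arrays, with albumin, Alb, at 4.14 to 4.60 and Apob at 3.69 to 3.97, whereas Ttr was bright at 8.08 to 8.96. The mean of the 10 ventricular muscle markers was 12.84 to 13.02, although 1 of them, Myh7, was 13.33 and 13.24 in ReAC pools, against 11.24 and 11.77 in control pools. In such bulk RNA fewer cells of a type and less RNA per cell cannot be told apart.

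The bases upstream of the transcription start are printed for the 4 genes that differed between ReAC and AC30 or ReAC and DeAC and have an entry in RefSeq (GRCr8). Each line holds the 250 bases before the start, 5′ to 3′ on the strand of the gene, and capitals mark matches to 3 motif cores searched on both strands, which did not overlap. Cyp2e1 lies at chr1:205269717-205269966 on the plus strand, Aox3 at chr9:67158750-67158999 on the plus strand, Aox1 at chr9:67073641-67073890 on the plus strand, and the Ephx1 window at chr13:95263118-95263367 on the minus strand.
Cyp2e1: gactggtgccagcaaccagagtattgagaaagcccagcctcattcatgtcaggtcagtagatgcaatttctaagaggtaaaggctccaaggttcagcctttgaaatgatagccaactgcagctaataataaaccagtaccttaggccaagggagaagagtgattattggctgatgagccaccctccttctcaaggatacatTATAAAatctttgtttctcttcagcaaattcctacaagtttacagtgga
Aox3: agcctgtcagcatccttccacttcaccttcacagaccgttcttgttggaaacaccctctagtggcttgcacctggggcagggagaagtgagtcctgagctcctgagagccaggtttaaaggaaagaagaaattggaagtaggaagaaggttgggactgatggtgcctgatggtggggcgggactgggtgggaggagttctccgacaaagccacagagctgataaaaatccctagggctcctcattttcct
Aox1: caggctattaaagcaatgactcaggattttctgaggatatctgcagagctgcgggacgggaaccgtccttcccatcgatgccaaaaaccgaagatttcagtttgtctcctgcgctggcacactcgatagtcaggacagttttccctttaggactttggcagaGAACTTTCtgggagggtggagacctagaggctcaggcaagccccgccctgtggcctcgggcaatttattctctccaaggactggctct
Ephx1: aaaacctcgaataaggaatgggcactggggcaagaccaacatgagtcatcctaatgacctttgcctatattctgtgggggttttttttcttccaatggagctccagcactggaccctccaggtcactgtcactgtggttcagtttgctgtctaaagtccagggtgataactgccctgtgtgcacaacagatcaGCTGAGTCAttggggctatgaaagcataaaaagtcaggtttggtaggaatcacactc
The TATA box core TATAAA stood in Cyp2e1 at positions -49 to -44 from the start, and 12.9% of 33469 rat promoter windows of the same length held it. The heat shock element core GAANNTTC stood in Aox1 at positions -88 to -81, as in 7.23% of windows. The antioxidant response element core TGACNNNGC stood in Ephx1 on the opposite strand at positions -57 to -49, as in 10.1% of windows, and the other of its 2 windows held no match. No core was found in the windows of Aox3 and Adh1c. These motifs were chosen with the sequences in hand, and a match describes letters and not binding.

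Cyp2e1 was highest in reacclimated hearts and next in deacclimated ones. Its log2 signal was 6.90 and 7.25 in AC2d pools, 6.77 and 7.09 in AC30 pools, 8.41 and 8.40 in DeAC pools and 9.27 and 9.32 in ReAC pools, against 6.73 and 6.43 in control pools. Both DeAC pools lay above every AC2d, AC30 and control pool, and both ReAC pools lay above both DeAC pools. The order of group means was ReAC, DeAC, AC2d, AC30 and control, in which AC2d and AC30 overlapped and AC30 lay above control without passing.

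Set against DeAC hearts of the same labelled age, ReAC hearts had Cyp2e1 higher by 0.89 ± 0.13, or 1.85-fold, a direction opposite to the one that the choice of a high DeAC value favours. The difference ranged from 0.86 to 0.91 without each array in turn. It was 0.36 when the atrial marker level was added as a covariate, a fit whose slope came almost wholly from the 2 control pools. In the same comparison each of the 7 macrophage markers was higher in both ReAC pools than in both DeAC pools, and 3 passed. Their median difference was 0.29. Over the 10 arrays Cyp2e1 had a Pearson correlation of 0.96 with the macrophage level and -0.79 with the fibroblast level. The part of these marker levels in the Cyp2e1 difference was not tested. Against control, ReAC hearts had Cyp2e1 higher by 2.72 ± 0.13, or 6.57-fold. The choice of a low control value favours this direction, so the difference is given without a p. Against AC30 the difference was 2.36 ± 0.13 in ReAC hearts (adjusted p = 1.88e-07), a comparison that uses none of the pools of the choice, and 1.48 ± 0.13 in DeAC hearts. DeAC exceeded control by 1.83 ± 0.13, given without a test.

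After short heat, in AC2d against control, Cyp2e1 differed by 0.50 ± 0.13 (95% interval 0.22 to 0.77). The choice of a low control value favours this direction, so the difference is given without a p. Both AC2d pools lay above both control pools. The difference was 0.64 without control replicate 1 (adjusted p = 0.0133) and 0.35 without control replicate 2 (adjusted p = 0.293). It also passed without AC30 replicate 1 (adjusted p = 0.0415), without AC30 replicate 2 (adjusted p = 0.042) and without the dimmest genes (adjusted p = 0.0486), so it lay close to the threshold.

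Adh1c, the alcohol dehydrogenase, followed a shallower course. Its signal was 6.83 and 7.09 in AC2d pools, 7.24 and 7.22 in AC30 pools, 7.49 and 7.57 in DeAC pools and 7.73 and 7.73 in ReAC pools, against 7.51 and 6.60 in control pools. Both ReAC pools exceeded all other pools, but control pool 1 lay between the DeAC pools. ReAC exceeded control by 0.68 ± 0.20 (adjusted p = 0.0438), which was lost in 9 of 10 fits without 1 array and without the variance trend (0.11), and measured 0.22 without control replicate 2 and 1.13 without control replicate 1. Against DeAC the ReAC difference was 0.20 ± 0.20 (adjusted p = 0.704), and DeAC lay 0.48 ± 0.20 above control, without a test. In AC2d against control it was -0.09 ± 0.20 (adjusted p = 0.927), and dropping control replicate 1 gave 0.36 while dropping control replicate 2 gave -0.55, so its sign turned with the control pool kept.

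The epoxide hydrolases had different courses. Ephx2, the soluble enzyme, had a signal of 6.84 and 6.92 in AC2d pools, 6.76 and 7.02 in AC30 pools, 8.05 and 8.15 in DeAC pools and 7.12 and 7.13 in ReAC pools, against 7.03 and 7.08 in control pools. The DeAC pools stood about 1 log2 unit above all others, and the AC2d, AC30, ReAC and control pools lay together between 6.76 and 7.13. The difference of ReAC from DeAC hearts was -0.97 ± 0.09, or 0.51-fold, after 2 days of renewed heat, and that of DeAC from AC30 hearts was 1.21 ± 0.09, or 2.31-fold. The choice of a gene with high DeAC values favours both directions, so they are descriptions without a p. Without each array in turn they ranged from -1.02 to -0.92 and from 1.08 to 1.34. ReAC differed from AC30 by 0.24 ± 0.09 (adjusted p = 0.129) and from control by 0.07 ± 0.09 (adjusted p = 0.706, 95% interval -0.13 to 0.27). DeAC exceeded control by 1.04 ± 0.09, given without a test.

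The atrial, fibroblast and mesothelium markers had their lowest levels in the DeAC pools, where Ephx2 was highest. With the atrial level as a covariate the Ephx2 difference was -0.87 in ReAC against DeAC and 1.06 in DeAC against AC30. The slope of that fit came almost wholly from the 2 control pools, between which Ephx2 differed by 0.04. Their atrial levels, 11.37 and 9.69, lay above the DeAC levels of 7.75 and 7.78. Over the 10 arrays Ephx2 had a Pearson correlation of -0.95 with the atrial level, -0.85 with the fibroblast level and -0.92 with the mesothelium level. The part of the atrial, fibroblast and mesothelium levels in the Ephx2 differences was not tested.

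**Figure D2:**
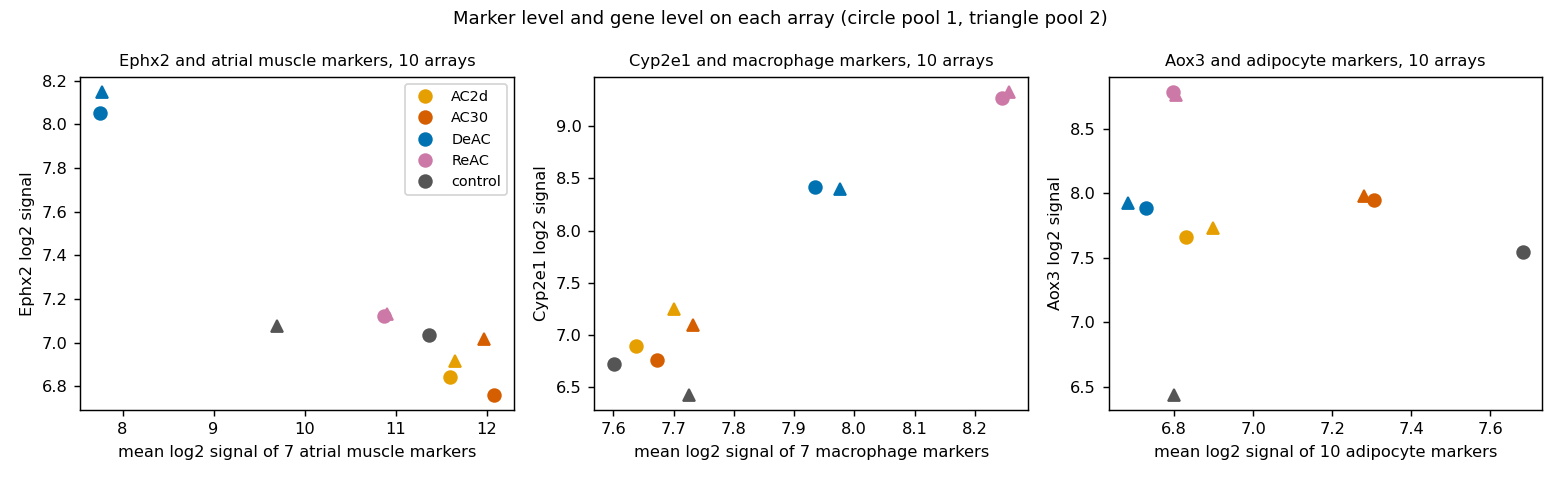
Each point is 1 array, with the mean log2 signal of a marker list along the horizontal axis and the log2 signal of 1 gene on the vertical axis, for Ephx2 and 7 atrial muscle markers, Cyp2e1 and 7 macrophage markers, and Aox3 and 10 adipocyte markers. The DeAC pools combine the lowest atrial levels (7.75 and 7.78) with the highest Ephx2, the ReAC pools combine the highest macrophage levels (8.25 and 8.26) with the highest Cyp2e1, and the control pools differ in adipocyte level (7.68 and 6.80) and in Aox3.

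Ephx1, the microsomal enzyme, had a signal of 7.55 and 7.53 in AC2d pools, 7.13 and 7.48 in AC30 pools, 7.90 and 7.93 in DeAC pools and 8.13 and 8.10 in ReAC pools, against 7.77 and 7.12 in control pools. The DeAC and ReAC pools lay above all others. ReAC exceeded control by 0.67 ± 0.16 (adjusted p = 0.0151) and AC30 by 0.81 ± 0.16 (adjusted p = 0.00429), and DeAC exceeded AC30 by 0.61 ± 0.16 (adjusted p = 0.016). ReAC and DeAC did not pass against each other (0.20 ± 0.16, adjusted p = 0.603). Leaving out 1 array ended the call against control in 3 of 10 fits, among them the one without control replicate 2 (0.35), the call in DeAC against AC30 in 3, and that in ReAC against AC30 in 1, without AC30 replicate 1. Fitting ReAC and control alone also ended the first call (adjusted p = 0.0689), and dropping the variance trend ended it (0.0555) and the call in DeAC against AC30 (0.0552).

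The aldehyde oxidase genes Aox1 and Aox3 are neighbours on rat chromosome 9, followed there by Aox4 and Aox2, with 0 protein-coding genes between Aox1 and Aox3. Aox2 and Aox4 gave signals of 4.60 to 5.11 on all arrays and passed in no comparison. Cross-hybridisation between the related genes was not tested.

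Aox3 reached its highest signal in reacclimated hearts. It measured 7.66 and 7.73 in AC2d pools, 7.94 and 7.98 in AC30 pools, 7.88 and 7.92 in DeAC pools and 8.78 and 8.76 in ReAC pools, against 7.54 and 6.44 in control pools. Both ReAC pools lay above every other pool, and both control pools lay below every heated one. ReAC exceeded control by 1.78 ± 0.22, or 3.43-fold (adjusted p = 0.0002), and this call held without each array in turn, at 1.22 to 2.33. AC30 exceeded control by 0.97 ± 0.22 (adjusted p = 0.017), which ended without either AC30 pool, in the fit of those groups alone (adjusted p = 0.14) and without the variance trend (0.0785), and which measured 1.52 without control replicate 1 and 0.42 without control replicate 2. AC2d differed from control by 0.70 ± 0.22 (adjusted p = 0.143), a difference of 1.26 without control replicate 1 (adjusted p = 2.1e-07) and of 0.15 without control replicate 2 (adjusted p = 0.55). DeAC lay 0.91 ± 0.22 above control, without a test.

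Between the groups of equal age, ReAC exceeded DeAC in Aox3 by 0.87 ± 0.22, or 1.82-fold (adjusted p = 0.0493). The pools of each group lay within 0.04 of each other, and the error came chiefly from control, since without control replicate 1 the same difference had an adjusted p of 1.59e-06. The call ended without any 1 of the 8 other arrays, with the values as deposited (adjusted p = 0.0548), with median scaling (0.0596), without the variance trend (0.166) and with all probe sets kept apart (0.0527). With the atrial covariate the difference turned to -1.18 (adjusted p = 0.00624). The slope of that fit came almost wholly from the 2 control pools, whose atrial levels of 11.37 and 9.69 lay above the DeAC levels of 7.75 and 7.78. ReAC also exceeded AC30, by 0.81 ± 0.22 (adjusted p = 0.033), which was lost in 8 of 10 fits without 1 array and without the variance trend (0.0997).

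Aox1 differed less, and its lowest heated group was DeAC. Its signal was 6.76 and 6.81 in AC2d pools, 6.85 and 6.94 in AC30 pools, 6.37 and 6.53 in DeAC pools and 7.06 and 7.01 in ReAC pools, against 6.83 and 6.34 in control pools. Both ReAC pools lay above every other pool. ReAC exceeded DeAC by 0.59 ± 0.13 (adjusted p = 0.0271), and DeAC lay below AC30 by -0.45 ± 0.13 (adjusted p = 0.0338). These calls ended in 6 and 8 of the 10 fits without 1 array, and with the atrial covariate, where they turned to -0.32 and 0.78. Both also ended without the variance trend (0.0858 and 0.0618), and the comparison of DeAC with AC30 also with median scaling (0.0553) and with the adipocyte covariate, at -0.13. The slopes of both covariates came almost wholly from the 2 control pools. ReAC exceeded control by 0.45 ± 0.13 (adjusted p = 0.0474), which ended with the values as deposited (0.0564), with the replicate block (0.0545) and in 9 of the 10 fits, and measured 0.20 without control replicate 2 and 0.69 without control replicate 1. DeAC differed from control by -0.14 ± 0.13, without a test.

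**Figure D3:**
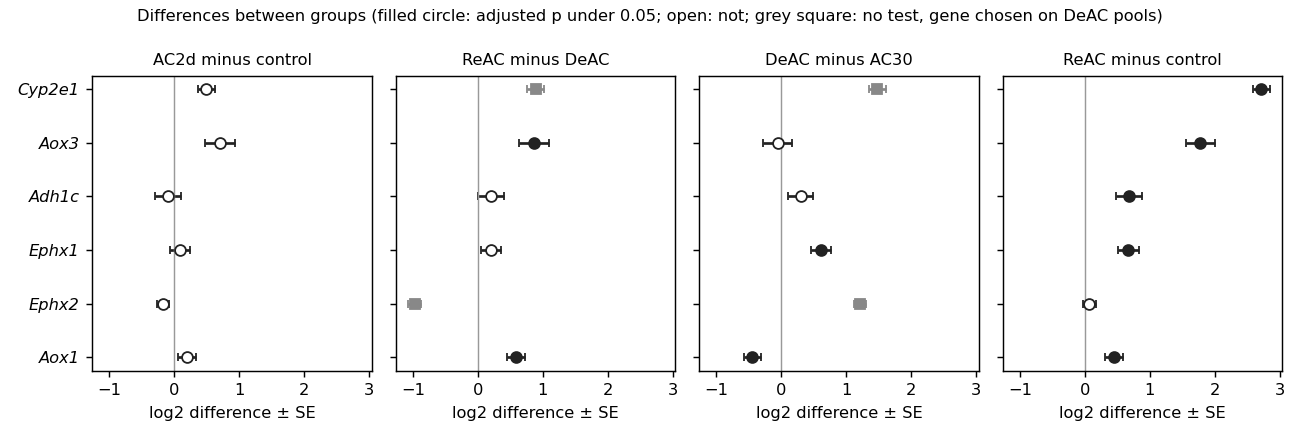
Log2 differences of the 6 genes with standard errors along the horizontal axis, in 4 comparisons, filled where the adjusted p was under 0.05 and open where it was not. Grey squares mark Cyp2e1 and Ephx2 in comparisons with DeAC pools, where no test is given. The choice of these genes also used the control pools, so their circles against control are no independent test. In ReAC minus DeAC, Ephx2 lies at -0.97 while Cyp2e1 (0.89), Aox3 (0.87) and Aox1 (0.59) lie to the right of 0.

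The first and the second 2 days of heat were compared directly. For Ephx2 the second response minus the first was -0.80 ± 0.13, made of -0.97 in ReAC against DeAC and -0.18 ± 0.09 in AC2d against control (adjusted p = 0.463 for the second of these). It contains the DeAC and control pools on which Ephx2 was chosen, with the sign that the choice favours, so it is given without a p. For Cyp2e1 the second response exceeded the first by 0.39 ± 0.18, given without a p, for Aox3 by 0.16 ± 0.32 (adjusted p = 0.958) and for Aox1 by 0.40 ± 0.19 (adjusted p = 0.62), so a larger second response was not detected for these aldehyde oxidases. Without control replicate 2 the Aox3 value was 0.72 (adjusted p = 0.0019) and the Adh1c value 0.75 (adjusted p = 0.0129), while without control replicate 1 they were -0.39 and -0.16.

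The 3 genes most like each of the 6, by Pearson correlation over the 10 arrays among 1348 genes whose group means spanned at least 0.5 log2 units, are given as a description, since arrays of a group share age and heat history. Closest to Cyp2e1 were Kcnj11, a subunit of the ATP-sensitive potassium channel (r = 0.988), the flavin monooxygenase gene Fmo2 (0.984) and Wdr45 (0.981). Fmo2 averaged 9.66 in ReAC and 9.26 in DeAC, against 8.49 in control. Closest to Ephx2 were St6galnac2 (0.964), the organic cation transporter gene Slc22a3 (0.96) and Tmed1 (0.959), and Slc22a3 averaged 7.40 in DeAC, 6.76 in ReAC and 6.60 in control. Closest to Aox3 were Mtmr14 (0.965), Fundc1 (0.962) and the complement inhibitor gene Serping1 (0.952). Closest to Aox1 was the metallothionein gene Mt1 (0.962), followed by Trim50 and Gabre. Closest to Adh1c were the immune-cell genes Clec4a1 (0.928) and Lgals3 (0.883) and the P450 gene Cyp4f5 (0.888). Closest to Ephx1 were Nkap (0.976), Tango2 (0.953) and the microsomal glutathione transferase gene Mgst2 (0.93).

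Of 8 lists of related enzymes and regulators, 153 genes were measured, and they were higher more often than lower in the DeAC and ReAC hearts. In DeAC against control 20 were higher and 0 lower, that is 13.1% and 0%, beside 4.45% and 3.77% of all genes. In ReAC against control 27 were higher and 5 lower, or 17.6% and 3.27%, beside 5.63% and 5.28% of all genes. In DeAC against AC30 39 were higher and 7 lower, or 25.5% and 4.58%, beside 9.85% and 7.45% of all genes. In ReAC against AC30 29 were higher and 2 lower, or 19.0% and 1.31%, beside 6.77% and 4.85% of all genes. Without 1 array the numbers higher fell as low as 4 in DeAC against control, 13 in ReAC against control, 22 in DeAC against AC30 and 16 in ReAC against AC30. In ReAC against DeAC 7 were higher and 3 lower, or 4.58% and 1.96%, beside 1.7% and 2.21% of all genes. In AC2d against control limma called 0 of 153 in either direction, with 16 at an unadjusted p under 0.05, beside 0.663% and 1.86% of all genes called. The median difference of the 153 genes in DeAC against control was 0.09, beside 0.00 for all genes.

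**Figure D4:**
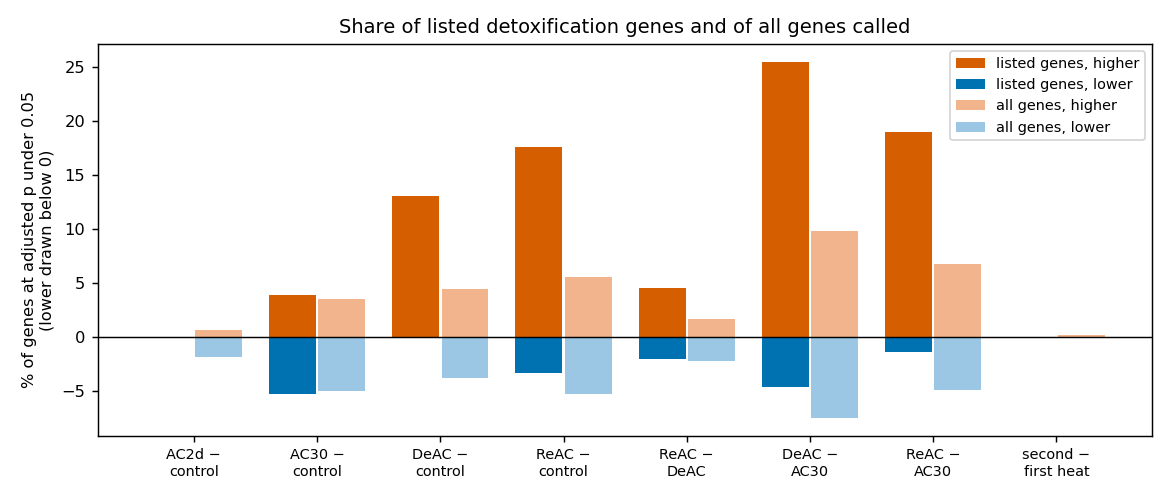
Percent of the 153 listed genes (dark bars) and of all 14324 genes (pale bars) with an adjusted p under 0.05 in each of 8 comparisons, higher above 0 and lower drawn below 0. The listed genes reach 25.5% higher in DeAC minus AC30, where 9.85% of all genes do, and 0% in AC2d minus control.

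Among the 14 measured aldehyde dehydrogenases, which clear the aldehydes made by alcohol dehydrogenases, 3 were higher and 0 lower in DeAC against control (4.45% and 3.77% of all genes), 5 were higher and 2 lower in ReAC against control (5.63% and 5.28%), and 4 were higher and 2 lower in DeAC against AC30 (9.85% and 7.45%). Mitochondrial Aldh2 had 11.09 and 11.20 in DeAC pools and 11.00 and 11.02 in ReAC pools, against 10.40 and 10.35 in AC30 pools and 10.62 and 10.81 in control pools. It rose by 0.77 ± 0.06 in DeAC against AC30 (adjusted p = 3.42e-06) and by 0.43 ± 0.06 in DeAC against control (adjusted p = 0.000817), and both calls held without each array. Aldh1a1, which makes retinoic acid, fell by 0.41 in DeAC against AC30.

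The other molybdenum enzymes and their cofactor genes numbered 11 measured, of which 1 was higher and 1 lower in ReAC against control, close to the 5.63% and 5.28% of all genes. In DeAC against AC30 4 of the 11 were higher and 0 lower, beside 9.85% and 7.45% of all genes. The calls of Suox, Mocs2 and Mocs3 there each ended in at least 1 fit without 1 array. Xdh, xanthine dehydrogenase and a relative of the aldehyde oxidases, rose by 0.54 ± 0.06 in ReAC against control (adjusted p = 0.000108) and by 0.73 ± 0.06 in ReAC against AC30, both held without each array, and by 0.35 ± 0.06 in ReAC against DeAC (adjusted p = 0.00866), a call that 2 of 10 fits without 1 array, median scaling and the fit without the variance trend ended. Mocs2, needed to make the cofactor, fell by 0.31 ± 0.06 in ReAC against DeAC (adjusted p = 0.0102), which ended in 4 of 10 fits without 1 array and without the variance trend.

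Of the 14 measured epoxide hydrolases and epoxygenases besides Ephx1 and Ephx2, limma called 0 in ReAC against DeAC, and 0 had an unadjusted p under 0.05. All genes were called there at 1.7% higher and 2.21% lower. In DeAC against AC30 1 of the 14, Ephx4, was higher and 0 lower, near the 9.85% of all genes higher, beside 7.45% lower. The Ephx4 call ended in 2 of 10 fits without 1 array. Among the 40 other cytochrome P450 genes, 4 were higher and 3 lower in DeAC against AC30 (9.85% and 7.45% of all genes), and 5 were higher and 0 lower in ReAC against control (5.63% and 5.28%), including Cyp4f5 (0.72 ± 0.12, adjusted p = 0.00213) and Cyp4b1 (0.48 ± 0.08, adjusted p = 0.00228). Of 9 electron donors and heme genes 3 were higher and 0 lower there, among them heme oxygenase Hmox1 (0.75 ± 0.09) and the quinone reductase Nqo1 (0.54 ± 0.10). In DeAC against AC30 5 of these 9 were higher and 0 lower, beside 9.85% and 7.45% of all genes. Of 25 measured alcohol, aldo-keto and carbonyl reductases, 10 were higher and 2 lower in DeAC against AC30.

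Of 26 measured conjugating enzymes, which attach glutathione, sulfate or methyl groups, 7 were higher and 0 lower in ReAC against control, beside 5.63% and 5.28% of all genes. The sulfotransferase gene Sult1a1 rose there by 0.82 ± 0.08 (adjusted p = 1.49e-05), and the glutathione transferase genes Mgst2 and Gsta1 by 0.62 ± 0.09 and 0.60 ± 0.09. Of 14 regulators 2 were higher and 0 lower, Ppara (0.54 ± 0.07), a lipid-sensing nuclear receptor whose agonists raise Ephx2 in rodent liver, and Keap1 (0.27 ± 0.07, ended in 3 of 10 fits without 1 array).

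The authors' deposited table of signed fold changes against control, which holds 651 probe sets, listed 5 of the 6 genes. In the authors' deposited table Cyp2e1 stood at 1.39 in AC2d, 1.28 in AC30, 3.59 in DeAC and 6.59 in ReAC. Ephx2 stood there at -1.12, -1.10, 2.12 and 1.07 in the same order in the authors' deposited table, a negative sign meaning lower than control. Aox3 stood in the authors' deposited table at 1.59, 1.92, 1.91 and 3.48, and Aox1 was not among its probe sets.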

How the data were processed

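Left ventricular total RNA was extracted with Tri-reagent and hybridised as biotin-labelled cDNA to Affymetrix arrays, per the labels' protocols. The values the authors deposited for 27342 probe sets were taken as log2 from their range, and the summary method was not given in the sources used here. The authors' deposited fold table holds signed fold changes against control, treated as a score. A single gene symbol was annotated for 15097 probe sets, several for 323 and none for 11922, symbols were updated through RefSeq (15067 matched), and the brightest probe set was kept for each of 14324 genes. Columns were quantile normalized. Group means were modelled in limma 3.58.1 under R 4.3.3 (eBayes with trend, 5 residual and 8.31 prior degrees of freedom), tests were two-sided, and p-values were Benjamini-Hochberg adjusted over all genes of a comparison. The fit was tested on simulated data. The number of arrays limits the precision.

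The 6 genes, the lists and the tests were chosen with earlier results of these data known. Named besides the 6 were up to 4 genes with the smallest p per list and comparison and the 3 genes most like each of the 6. Alternatives were the deposited values, median scaling, no trend, no dim genes (40% left out), uncollapsed or averaged probe sets, groups alone, a replicate block, each array left out, and 2 marker covariates chosen after seeing the data.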

Additional observations from a re-analysis of the deposited data

Results flagged for a closer look

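Ephx2 differed between the second 2 days of heat and the first. The second response, ReAC minus DeAC, less the first, AC2d minus control, was -0.80 ± 0.13. The term holds the DeAC and control pools on which Ephx2 was chosen, and the choice partly fixed its sign, so it is a description and no independent test. Groups of 2 pools are too small for a test of single outlying pools.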

How the results depend on the processing

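Cyp2e1 in ReAC against AC30, and Aox3 in ReAC against control, kept their direction and call with the deposited values, median scaling, no variance trend, no dim genes, other probe set rules, groups alone and the replicate block, and without each array. Cyp2e1 in ReAC against control kept its direction in the same fits, a direction that the choice favours. The number of the 6 genes called without 1 array ranged from 0 to 2 in AC2d against control, 0 to 4 in AC30 against control, 2 to 5 in ReAC against control, 2 to 4 in ReAC against DeAC, 2 to 5 in DeAC against AC30, 1 to 4 in ReAC against AC30 and 0 to 3 in the second response minus the first, and 5 to 6 differences were positive in DeAC against control. Median scaling gave 0 in the second response minus the first and turned Aox3 in DeAC against AC30 to 0.072. Without the variance trend the counts were 0 in AC30 against control, 2 in ReAC against control, 2 in ReAC against DeAC, 2 in DeAC against AC30 and 0 in the second response minus the first. Without the dimmest genes 1 was called in AC2d against control, Cyp2e1. With groups alone the counts were 0 in AC30 against control and 2 in ReAC against control. The causes of these moves were not tested. Counts of the 6 genes in comparisons with DeAC or control pools, here and below, include Cyp2e1 and Ephx2, so the choice of these 2 genes partly fixed them.

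Without 1 array, signs turned within -0.55 to 0.36 for Adh1c, -0.23 to 0.41 for Ephx1 and -0.053 to 0.44 for Aox1 in AC2d against control, within -0.47 to 0.18 for Ephx1 and -0.28 to 0.63 for Adh1c in AC30 against control, within -0.39 to 0.11 for Aox1 in DeAC against control, and within -0.21 to 0.44 for Ephx1, -0.39 to 0.72 for Aox3 and -0.16 to 0.75 for Adh1c in the second response minus the first.

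The covariate slopes rest on the control pools, which held 99.3% of the within-group variance of the atrial level and 99.0% of that of the adipocyte level. With the atrial covariate the counts were 1 in AC2d against control, 2 in AC30 against control and 2 in ReAC against DeAC. In AC2d against control it turned Ephx1 to -0.31, Aox1 to -0.12 and Aox3 to -0.015, in AC30 against control Aox1 to -0.12, Aox3 to -0.011 and Adh1c to -0.64, and in DeAC against control Aox1 to 0.66. In ReAC against DeAC it turned Ephx1 to -0.95, Aox1 to -0.32, Aox3 to -1.18 and Adh1c to -1.51, in DeAC against AC30 Aox1 to 0.78 and Aox3 to 2.73, and in the second response minus the first Ephx1 to -0.64, Aox1 to -0.19, Aox3 to -1.17 and Adh1c to -0.82. The adipocyte covariate gave a count of 2 in AC2d against control, and turned Adh1c there to 0.30, Aox1 in DeAC against control to 0.15, Aox3 in DeAC against AC30 to 0.67, and Ephx1, Aox3 and Adh1c in the second response minus the first to -0.22, -0.42 and -0.20.

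Deviations of same-numbered pools correlated from -0.08 to 0.21 over 10 pairs, with a median of -0.004 and 1 pair over 0.1. The labels give no pairing of pools, and this check cannot exclude one between some of the groups. The replicate block gave 4 genes in ReAC against control, against 5 without it, ending the call of Aox1, and counts of 4 in ReAC against DeAC, 4 in DeAC against AC30 and 1 in the second response minus the first. For the 153 listed genes the number higher in DeAC against control was 4 to 24 without 1 array and 8 to 25 under the other alternatives, against 20, in ReAC against control 13 to 30 and 18 to 31, against 27, in DeAC against AC30 22 to 41 and 30 to 41, against 39, in ReAC against AC30 16 to 33 and 21 to 36, against 29, and in ReAC against DeAC 0 to 7 and 1 to 9, against 7. With 2 pools per group, small differences were seldom detectable for genes whose control pools lay apart.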

Other observations

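Thiopurine methyltransferase, Tpmt, was among the listed conjugating genes that were lowest in AC30 hearts. It fell by 0.53 ± 0.08 in AC30 against control (adjusted p = 0.00153) and rose by 0.74 ± 0.08 in DeAC against AC30 (adjusted p = 3.57e-05), both held without each array in turn. The P450 gene Cyp11a1, which starts steroid synthesis, was high in DeAC hearts, rising by 0.89 ± 0.12 in DeAC against AC30 (adjusted p = 0.000192) and falling by 0.60 ± 0.12 in ReAC against DeAC (adjusted p = 0.0141, ended in 4 of 10 fits without 1 array). Cyp1b1, which oxidises steroids and polycyclic hydrocarbons, went the other way, with -0.77 ± 0.13 in DeAC against AC30 (adjusted p = 0.00118) and 0.74 ± 0.13 in ReAC against DeAC (adjusted p = 0.00866, ended in 3 of 10).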
